A study of Homo sapiens with 6 samples.

Results

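The epidermal differentiation complex (EDC) is a stretch of chromosome 1 filled with genes for the proteins of the skin's outermost layer. Leaving its S100 genes aside, 38 of the 19899 genes in the COV434 RNA-seq table belonged to it. Members were taken by symbol: 18 late cornified envelope genes (LCE followed by a digit), 10 small proline-rich protein genes (SPRR), the 7 fused S100-type genes CRNN, FLG, FLG2, HRNR, RPTN, TCHH and TCHHL1, and the 3 further genes IVL, LOR and CRCT1. COV434 is an established line of ovarian origin, treated by the study as SCCOHT, a small cell cancer of the ovary with hypercalcemia that has lost BRG1, the ATPase of the SWI/SNF chromatin remodeler encoded by SMARCA4. Control samples (n = 3) were COV434 parental cells given the plasmid pCDNA3-neo, and BRG1 samples (n = 3) were the same cells given PBJ5-BRG1. Both groups also received pBABE-puro, which carries puromycin resistance, at 1 part to between 6.25 and 10 parts of the other plasmid, and both were selected in 2 to 3 µg/ml puromycin for 3 days, from 24 hours after transfection. BRG1 was thus expressed from a plasmid during selection, and the fraction of cells that carried it was not measured here.

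Libraries held between 29699741 (BRG1 sample 3) and 63613710 (BRG1 sample 1) estimated counts. SMARCA4, the transfected gene, had normalised counts of 1439, 1676 and 1538 in Control samples 1 to 3 and 108655, 79075 and 78589 in BRG1 samples 1 to 3, plasmid transcripts included. A normalised count is the estimated count, rounded and divided by the DESeq2 size factor of its library. SMARCA2, which encodes the alternative ATPase BRM, was low in every sample, from 3.79 to 23.2 in Control and from 5.97 to 35.7 in BRG1 samples.

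As keratinocytes leave the basal layer and flatten, they switch on EDC genes, and transglutaminases then crosslink the products into a cornified envelope under the plasma membrane. Involucrin forms an early scaffold, and loricrin, the SPRR proteins and the LCE proteins reinforce it. Filaggrin, the product of a fused S100-type gene, bundles keratin filaments and is later broken down to compounds that hold water. These genes are known chiefly from skin and other stratified epithelia, and several of their promoters are textbook targets of AP-1, a dimer of FOS and JUN family proteins.

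The promoters of the members on which the results turn are given first, because AP-1 binding letters are part of what the genes are known for. RefSeq sequence (GRCh38.p14) was matched for 34 of the 38 members, all but CRCT1, LCE1B, SPRR2D and SPRR2E, and the 250 bases before each transcription start were searched. Capitals mark the AP-1 letters TGAGTCA (or TGACTCA, the same site read on the other strand) and the TATA box letters TATAAA. Each line runs 5′ to 3′ on the strand of the gene and ends at the base before its start. IVL and SPRR3 held both motifs and were called higher in BRG1 samples, CRNN, FLG and HRNR held TATAAA without these AP-1 letters and were called higher, and SPRR1A held both motifs and had no count in any sample.
IVL (chr1:152908296-152908545, plus strand): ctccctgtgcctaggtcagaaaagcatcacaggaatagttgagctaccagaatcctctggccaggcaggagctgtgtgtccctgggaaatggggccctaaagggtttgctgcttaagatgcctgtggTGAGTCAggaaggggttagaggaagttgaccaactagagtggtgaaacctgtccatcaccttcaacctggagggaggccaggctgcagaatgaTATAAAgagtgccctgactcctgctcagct
SPRR3 (chr1:153001499-153001748, plus strand): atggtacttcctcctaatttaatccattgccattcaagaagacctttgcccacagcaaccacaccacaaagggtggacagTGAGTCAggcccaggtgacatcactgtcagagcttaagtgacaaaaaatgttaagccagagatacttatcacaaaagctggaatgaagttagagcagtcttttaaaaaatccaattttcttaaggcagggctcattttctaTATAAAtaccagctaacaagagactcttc
CRNN (chr1:152414264-152414513, minus strand): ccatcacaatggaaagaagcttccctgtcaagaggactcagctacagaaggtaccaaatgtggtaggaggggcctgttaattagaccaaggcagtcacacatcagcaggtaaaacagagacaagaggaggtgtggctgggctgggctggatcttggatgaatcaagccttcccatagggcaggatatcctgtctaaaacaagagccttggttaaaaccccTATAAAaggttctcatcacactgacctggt
FLG (chr1:152325240-152325489, minus strand): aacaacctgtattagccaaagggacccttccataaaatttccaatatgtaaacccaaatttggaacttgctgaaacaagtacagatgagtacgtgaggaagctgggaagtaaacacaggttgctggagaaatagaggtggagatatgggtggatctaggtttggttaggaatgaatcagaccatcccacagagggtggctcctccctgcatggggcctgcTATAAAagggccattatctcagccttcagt
HRNR (chr1:152224194-152224443, minus strand): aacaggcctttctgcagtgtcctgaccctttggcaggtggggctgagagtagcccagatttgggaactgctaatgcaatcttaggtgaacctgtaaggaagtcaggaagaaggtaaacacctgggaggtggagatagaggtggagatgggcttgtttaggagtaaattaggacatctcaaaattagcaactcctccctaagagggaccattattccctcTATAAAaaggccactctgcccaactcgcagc
SPRR1A (chr1:152983831-152984080, plus strand): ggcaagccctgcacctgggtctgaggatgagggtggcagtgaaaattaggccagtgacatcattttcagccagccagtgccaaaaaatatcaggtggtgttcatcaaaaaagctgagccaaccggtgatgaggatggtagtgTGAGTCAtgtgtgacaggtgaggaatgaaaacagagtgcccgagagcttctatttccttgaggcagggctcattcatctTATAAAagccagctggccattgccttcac

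Within these windows the TATAAA letters lay at positions -30 to -25 in IVL, CRNN and FLG, at -31 to -26 in HRNR and at -29 to -24 in SPRR3 and SPRR1A, where -1 is the last base before the start. The AP-1 letters lay at -123 to -117 in IVL, at -170 to -164 in SPRR3 and at -108 to -102 in SPRR1A. On either strand, AP-1 letters were present in 7 of 34 member promoters (20.6%), against 4.20% of the 35116 promoters in the RefSeq table. TATA box letters were present in 21 of 34 (61.8%), against 10.7% of all promoters. The letters AGGAAGT of the ETS family were found in 7 of 34 (20.6%), against 7.01%. Each member was counted by the promoter nearest its GENCODE start. The 35116 promoters were counted without that choice and can include several of a gene, so the shares are not strictly alike. Neighbouring members are copies of each other in part, so their promoters are not independent. Split by the calls given below, AP-1 letters were in 2 of 9 promoters of members called higher and in 5 of 25 of the others (LOR, SPRR1A, SPRR1B, SPRR2A and SPRR2F). TATA box letters were in 7 of 9 and 14 of 25, and ETS letters in 3 of 9 and 4 of 25. A match describes the sequence and is not a binding site.

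The question asked of the members was how their RNA differed between BRG1 and Control samples. Summed over the 38 genes, normalised counts were 262, 156 and 161 in Control samples 1 to 3 and 26226, 16032 and 11346 in BRG1 samples 1 to 3. Every BRG1 sample lay far above every Control sample, and the means of 193 ± 59.7 and 17868 ± 7608 (SD, n = 3) differed 92.6-fold. FLG alone made up most of this sum, and without it the difference was still 64.5-fold. As a share of all counts, EDC transcripts took 0.000330% to 0.000567% of a Control library and 0.0256% to 0.0568% of a BRG1 library. In bulk RNA, more cells expressing a gene and more RNA of it per cell cannot be told apart.

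The call was the DESeq2 Wald test at an adjusted p under 0.05 over all genes. Of the 38 members, 18 had enough counts for an adjusted p, and 10 of them were called higher in BRG1 samples (CRNN, FLG, FLG2, HRNR, IVL, LCE1C, LCE2A, RPTN, SPRR2D and SPRR3), where 11.0% of the 16002 genes tested were called higher. None was called lower by DESeq2, against 1.84% of all genes tested, and an unadjusted p under 0.05 found 0 lower. Most of the 18 had few Control counts, from which a fall could hardly be called, so this absence says little. The edgeR quasi-likelihood test reached 10 members and called 8 of them higher, where it called 9.57% of 14246 genes. FLG2 was too low for edgeR to test and LCE2A was not called by it (edgeR adjusted p = 0.103). Blocked on the replicate number, DESeq2 called 8 members higher, without FLG2 and LCE2A, against 13.4% of all genes tested. In 11 of the 18 members, CRCT1 with about 1 count in some samples included, every BRG1 sample exceeded every Control sample. This held for 16.7% of all genes tested. The median log2 fold change was 2.94 over the 18 members and -0.01 over all genes tested. A member near 0 in Control could enter the test only through its BRG1 counts, so the 18 do not stand for all 38.

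**Figure D1:**
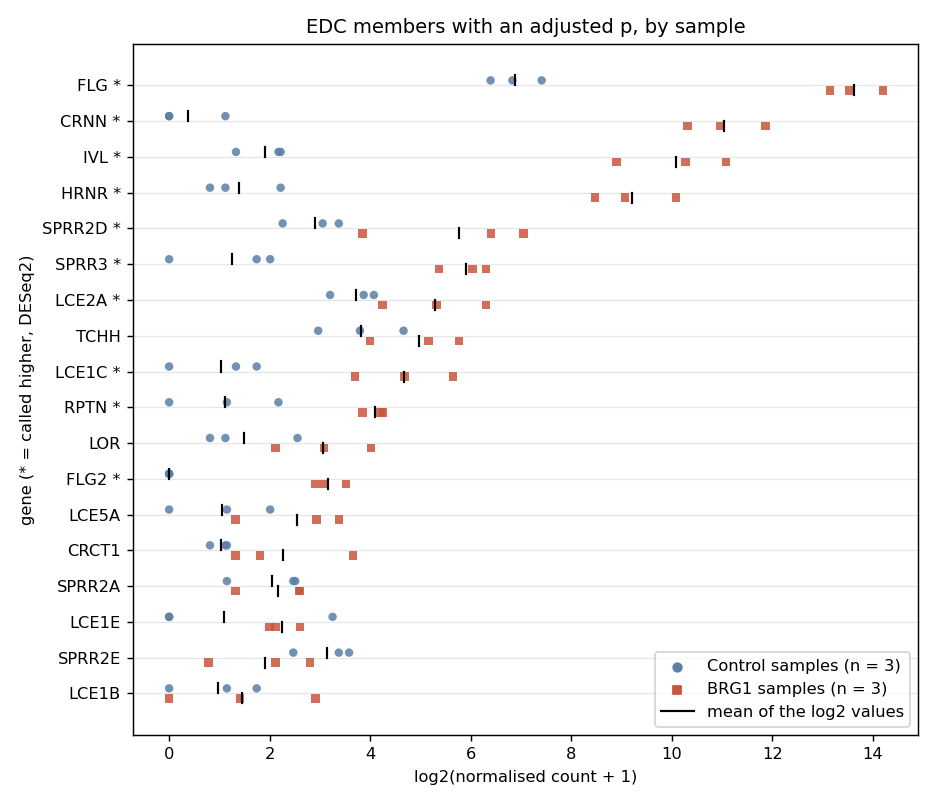
Normalised counts of the 18 members with an adjusted p, on a log2(normalised count + 1) axis, with circles for the 3 Control samples, squares for the 3 BRG1 samples and black ticks for the means of the log2 values; stars mark the 10 members called higher. FLG, CRNN, IVL and HRNR stand apart, with all BRG1 samples above 8 on the axis, while the groups overlap in TCHH, LOR and SPRR2E.

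Of the fused S100-type genes, which encode long repetitive proteins with an S100-like calcium-binding end, 6 of 7 were tested and 5 were called higher. FLG encodes profilaggrin, the precursor of filaggrin. Its normalised count was 169, 83.3 and 113 in Control samples 1 to 3 and 18816, 11907 and 9090 in BRG1 samples 1 to 3. FLG had more counts in Control than any other member, and the lowest BRG1 sample was still far above the highest Control sample. The log2 fold change was 6.77 (SE 0.34, DESeq2 adjusted p = 7.2e-88, edgeR adjusted p = 8.4e-05), and BRG1 exceeded Control 111-fold, 143-fold and 80.6-fold within replicate numbers 1 to 3. FLG lies at chr1:152302165-152325239 on the minus strand (GENCODE release 44), and 12.4% of its exonic bases are also exon of the antisense gene FLG-AS1. These unstranded libraries cannot separate the reads of that overlap.

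CRNN encodes cornulin, a fused S100-type protein of the esophageal and other squamous lining. Its normalised count was 0, 1.17 and 0 in Control samples and 3721, 2004 and 1276 in BRG1 samples 1 to 3. CRNN was thus all but undetected without the BRG1 plasmid, with 1 count over the 3 Control libraries, and abundant in each BRG1 sample. The ratio of counts per depth was 7731 with an exact 95% counting interval of 1387 to 305394. The fitted log2 fold change was 12.63 (SE 1.24, DESeq2 adjusted p = 2.2e-22, edgeR adjusted p = 1.0e-04).

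HRNR encodes hornerin, a filaggrin-like protein. It had normalised counts of 3.66, 1.17 and 0.757 in Control samples and 1089, 536 and 355 in BRG1 samples 1 to 3. Again no BRG1 sample came near the Control range, and within replicate numbers the folds were 298, 457 and 469. The log2 fold change was 8.59 (SE 0.78, DESeq2 adjusted p = 2.5e-26, edgeR adjusted p = 2.4e-04). The transcripts of FLG, CRNN and HRNR shared none of their 31-base words with another protein-coding gene.

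The other fused genes were far lower. RPTN, which encodes repetin, averaged 1.58 ± 1.79 in Control and 16.3 ± 2.54 with BRG1 (SD, n = 3; log2 fold change 3.50, SE 1.13, DESeq2 adjusted p = 0.0179, edgeR adjusted p = 0.0278). FLG2, the filaggrin-2 gene beside FLG, had 0 counts in all 3 Control libraries and 25 over the BRG1 libraries, at least 7.67-fold higher against a floor of 3 counts over the Control group. Its DESeq2 adjusted p was 0.0178, and 0.0800 with the replicate block. Neither call held when any single BRG1 library was left out, the FLG2 call was also lost without Control sample 3 and the RPTN call without Control sample 1 or 3, with DESeq2 adjusted p-values of up to 0.219 for FLG2 and 0.213 for RPTN. TCHH, encoding trichohyalin of the hair follicle's inner root sheath, averaged 14.7 ± 8.91 in Control and 34.5 ± 19.4 in BRG1 samples with overlapping groups, and was not called (log2 fold change 1.27, SE 0.72, DESeq2 adjusted p = 0.328). TCHHL1 had 2 counts in all.

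Involucrin, the product of IVL, is among the earliest envelope proteins to be crosslinked. IVL had normalised counts of 3.66, 3.52 and 1.51 in Control samples and 2159, 1241 and 476 in BRG1 samples 1 to 3. Sample 1 was the highest and sample 3 the lowest of the BRG1 group, and all 3 were well clear of Control. The log2 fold change was 8.88 (SE 0.70, DESeq2 adjusted p = 2.0e-34, edgeR adjusted p = 3.1e-04), and the folds within replicate numbers 1 to 3 were 591, 353 and 314.

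LOR encodes loricrin, the major protein of the mature cornified envelope, and did not follow IVL. Its normalised counts were 4.87, 1.17 and 0.757 in Control samples and 15.2, 3.32 and 7.46 in BRG1 samples 1 to 3. BRG1 sample 2 was below Control sample 1, so the groups overlapped, and at 30 counts over the BRG1 libraries the gene stayed close to the limit of detection. LOR was not called (log2 fold change 2.00, SE 1.26, DESeq2 adjusted p = 0.403). CRCT1, a cysteine-rich gene among the LCE genes, averaged 1.05 ± 0.254 and 5.20 ± 5.57 and was not called either (DESeq2 adjusted p = 0.440). Its normalised counts did not overlap between groups, but each Control sample and BRG1 sample 3 held about 1 estimated count. BRG1 sample 3 lay above Control only through its size factor of 0.67.

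Among the SPRR genes, whose products bridge other envelope proteins, 2 of the 4 tested were called higher. SPRR3, the member of the family best known from esophagus, had a mean normalised count of 1.79 ± 1.59 in Control samples and 61.0 ± 19.1 with BRG1 (SD, n = 3; log2 fold change 4.98, SE 0.80, DESeq2 adjusted p = 1.3e-08, edgeR adjusted p = 0.00249). SPRR2D averaged 6.83 ± 2.83 in Control and 76.5 ± 59.6 in BRG1 samples, where it spread from 13.4 in sample 3 to 132 in sample 1 (log2 fold change 3.52, SE 0.82, DESeq2 adjusted p = 2.7e-04, edgeR adjusted p = 0.0311). With limma-voom SPRR2D was not called (adjusted p = 0.0947). SPRR2D shared 48.8% of its 31-base words and 14.3% of its 78-base words, the read length, with other genes, above all SPRR2A and SPRR2B, so counts within the SPRR2 group are uncertain. SPRR2A, its closest copy, averaged 3.48 ± 1.96 and 3.85 ± 2.04 and was not called (DESeq2 adjusted p = 0.971). SPRR2E averaged 8.30 ± 3.35 in Control and 3.34 ± 2.62 in BRG1 samples, the only tested member with a log2 fold change below 0 (-1.39, SE 1.12, DESeq2 adjusted p = 0.580). SPRR3 shared no 31-base word with another gene.

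The LCE genes make small cysteine-rich proteins that are added late to the envelope. Of 18 genes, 5 were tested and 2 called higher. LCE1C averaged 1.29 ± 1.19 in Control and 28.5 ± 18.8 with BRG1 (SD, n = 3; log2 fold change 4.45, SE 1.09, DESeq2 adjusted p = 6.0e-04, edgeR adjusted p = 0.0127), and 30.2% of its 31-base words occur in other genes. Without BRG1 sample 2, the highest, the LCE1C call was lost (DESeq2 adjusted p = 0.0764). LCE2A averaged 12.6 ± 3.93 in Control and 45.1 ± 30.7 in BRG1 samples (log2 fold change 1.86, SE 0.68, DESeq2 adjusted p = 0.0497). Its lowest BRG1 sample, at 17.9, was barely above its highest Control sample, at 15.8, and the call did not hold with edgeR, with the replicate block (DESeq2 adjusted p = 0.0948) or without any single library other than BRG1 sample 3 (DESeq2 adjusted p of up to 0.580). The 3 other LCE genes tested, LCE1B, LCE1E and LCE5A, had means under 6 in both groups and were not called.

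The 20 members without an adjusted p were at or near 0 throughout. LCE1D, LCE2B, LCE2D, LCE3B, LCE3C, LCE4A, SPRR1A and SPRR4 had no count in any of the 6 libraries. The other 12 (LCE1A, LCE1F, LCE2C, LCE3A, LCE3D, LCE3E, LCE6A, SPRR1B, SPRR2B, SPRR2F, SPRR2G and TCHHL1) had between 1 and 12 counts over all 6. At this depth a difference in these genes was not detectable.

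Levels of different genes were compared as normalised counts per kb of transcript, using lengths from GENCODE release 44. On this scale CRNN was the highest member in BRG1 samples, at 1227 ± 660 per kb (SD, n = 3), ahead of FLG at 1037 ± 391, whose transcript of 12793 bases gives it more counts. These neighbours in the order did not differ beyond their spread. IVL followed at 601 ± 392 per kb, then SPRR2D at 113 ± 88.1, LCE2A at 73.8 ± 50.2, HRNR at 68.5 ± 39.7, SPRR3 at 67.8 ± 21.3 and LCE1C at 39.8 ± 26.2, and the spreads of these 5 overlapped. Every other member was below 8 per kb. In BRG1 samples CRNN made up 37.0%, FLG 33.2% and IVL 17.1% of the summed per-kb level on average. In Control the small remaining sum was led by LCE2A at 24.8%, SPRR2E at 14.1% and SPRR2D at 11.8%, on few counts. The summed per-kb level was 38.9-fold higher in BRG1 samples.

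**Figure D2:**
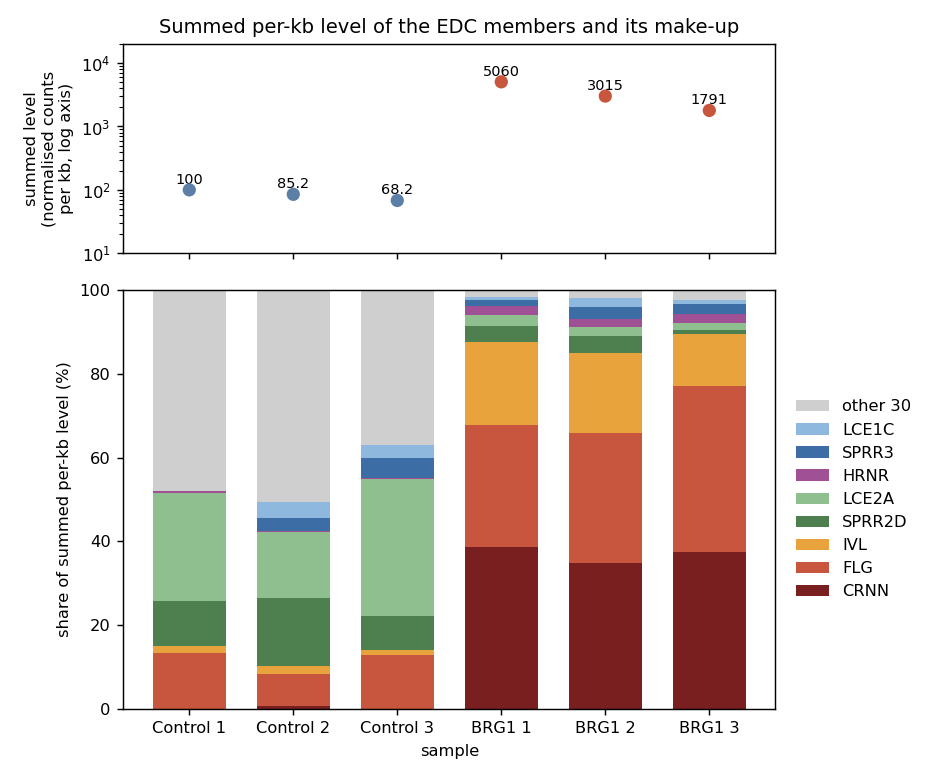
The upper panel gives the summed level of the 38 members in each sample, in normalised counts per kb on a log axis, and the lower panel the share (%) that each of the 8 highest members and the other 30 together take of it. The sum lies between 68.2 and 100.1 in Control samples and between 1791 and 5060 in BRG1 samples, where CRNN, FLG and IVL take most of it in all 3.

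BRG1 samples differed among themselves in a common order. For the 9 members whose normalised counts averaged at least 10, sample 3 was the lowest BRG1 sample in all 9, sample 1 the highest in 7 and sample 2 the highest in 2. The summed EDC level fell in the same order, from 26226 to 16032 to 11346 in samples 1 to 3. SMARCA4 was also highest in sample 1, at 108655, while samples 2 and 3 were alike at 79075 and 78589. BRG1 sample 3 had the smallest library, and whether depth or SMARCA4 level bears on this order was not tested. The order was not counted over all genes tested, so it cannot be called particular to the members. Leaving out any single library kept the log2 fold change between 6.43 and 7.07 for FLG, 11.93 and 13.69 for CRNN, 8.04 and 9.47 for HRNR and 8.30 and 9.30 for IVL, all still called.

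The members span chr1:152084141-153262124, or 1178 kb, and calls were scattered along it. The 7 fused genes lie side by side within 330 kb at the start, where RPTN, HRNR, FLG, FLG2 and CRNN, called higher, follow one another among the genes read here. Next to them LCE5A, CRCT1 and the LCE3 and LCE2 genes gave only the LCE2A call. From there on calls lay apart from each other among the members. IVL lay between LCE6A and SPRR4, which had 1 and 0 counts, and SPRR3 between SPRR1A and SPRR1B, which had 0 and 3. SMCP, a gene outside the members that was called higher, lay directly before IVL.

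A list of 36 genes that lie among or next to the members, S100 genes included, was read the same way. Of these, 20 were tested and 9 were called higher (45.0%, against 11.0% of all genes tested; edgeR 8), none lower (0 at an unadjusted p under 0.05 and 0 by edgeR), with a median log2 fold change of 3.91. Between members, KPRP, PRR9 and SMCP were called, which were the 3 tested of 5 neighbours there. KPRP, encoding a keratinocyte proline-rich protein, averaged 5.18 ± 4.0 in Control and 501 ± 367 with BRG1 (SD, n = 3; log2 fold change 6.66, SE 0.72, DESeq2 adjusted p = 1.3e-18). PRR9, a proline-rich gene beside LOR, averaged 4.49 ± 2.58 and 246 ± 168 (log2 fold change 5.84, SE 0.76, DESeq2 adjusted p = 5.9e-13). Thus LOR, which was not called, sat next to a gene that was. Past the last member 14 of 22 neighbours were tested and 6 called, all of them S100 genes. Of these S100A14, at 0.797 ± 0.691 and 11.7 ± 2.78, lost its call with the replicate block (DESeq2 adjusted p = 0.0626) and was too low for edgeR to test. The others included S100A3 with 2.02 ± 2.54 and 389 ± 150 (log2 fold change 7.81, SE 0.76, DESeq2 adjusted p = 6.5e-23) and S100A16 with 184 ± 63.6 and 2755 ± 1745 (log2 fold change 3.90, SE 0.45, DESeq2 adjusted p = 1.1e-16). Before the first member 3 of 8 were tested and 0 called by DESeq2 or edgeR, and 1 had an unadjusted DESeq2 p under 0.05. The broadly expressed ILF2 and INTS3 at the far end did not differ detectably, with log2 fold changes of -0.04 (SE 0.14) and -0.11 (SE 0.26).

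**Figure D3:**
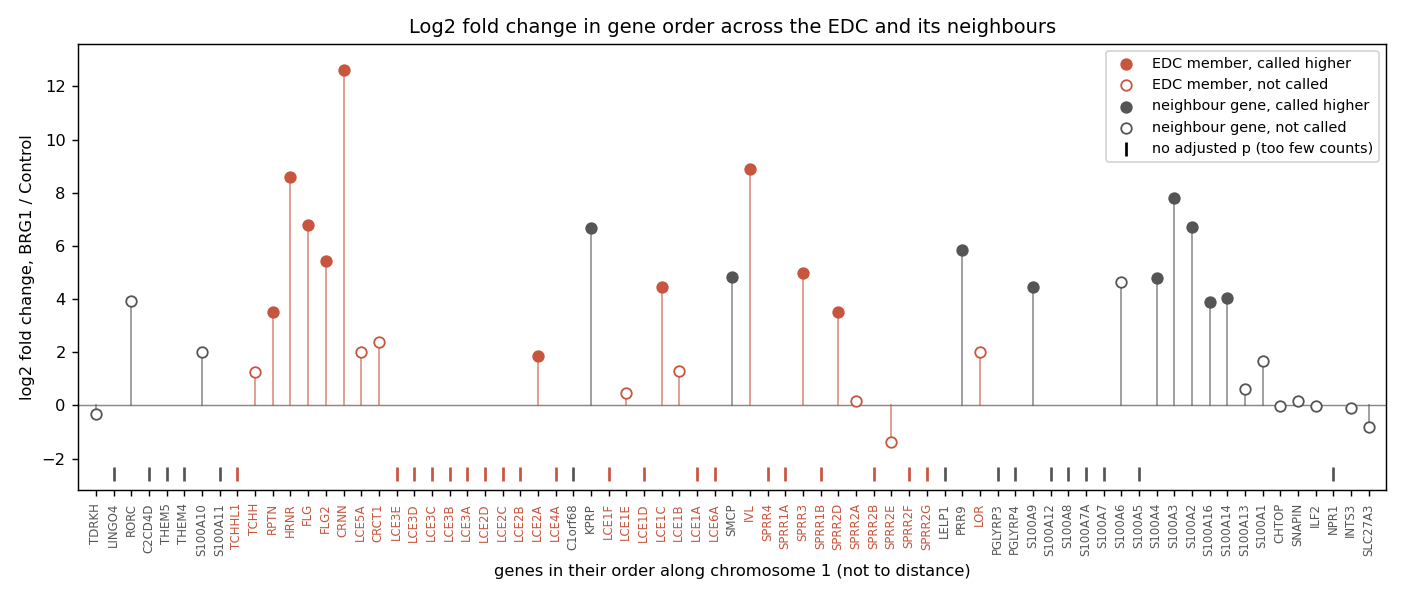
DESeq2 log2 fold change (BRG1 over Control) of the members and their neighbours, in their order along chromosome 1 and not to distance; filled circles were called higher, open circles not, and ticks mark genes with too few counts for an adjusted p. The fused genes RPTN to CRNN form an unbroken run of calls, while LCE2A, LCE1C, SPRR3 and SPRR2D each lie between members that were not called or had no adjusted p.

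The proteins that join EDC products in the envelope were taken as a list of 22 genes, of which 17 were tested and 6 called higher (35.3%, against 11.0% of all genes tested; edgeR 5). DESeq2 called 0 lower, edgeR 0, and 1 was lower by an unadjusted p under 0.05. The median log2 fold change was 1.23. Elafin (PI3), a protease inhibitor that transglutaminase fixes into the envelope, averaged 36.6 ± 4.38 in Control and 5839 ± 3392 with BRG1 (SD, n = 3; log2 fold change 7.32, SE 0.43, DESeq2 adjusted p = 7.9e-62). The crosslinking enzyme itself, TGM1, rose from 55.2 ± 8.62 to 532 ± 289 (log2 fold change 3.27, SE 0.43, DESeq2 adjusted p = 1.4e-12). ANXA1, annexin A1, rose by 3.83 on the log2 scale (SE 0.33) and the envelope scaffold PPL, periplakin, by 2.87 (SE 0.34). The desmosomal cadherins DSC1 and DSG1 were abundant in both groups, at 29101 ± 2421 and 21134 ± 3010 in Control and 23780 ± 2599 and 17422 ± 1841 in BRG1 samples, and were not called (DESeq2 adjusted p = 0.248 and 0.391).

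Of 12 genes whose products process filaggrin or control that step, 9 were tested, 2 were called higher (22.2%, against 11.0% of all genes tested; edgeR also 2) and 0 lower (0 at an unadjusted p under 0.05, edgeR 0), with a median log2 fold change of 0.13. KLK5, a serine protease of the stratum corneum, rose from 7.45 ± 3.42 to 1606 ± 939 (SD, n = 3; log2 fold change 7.73, SE 0.52, DESeq2 adjusted p = 2.1e-47). The other call was KLK7, a related protease, with 1.15 ± 1.14 and 22.3 ± 3.14 (log2 fold change 4.13, SE 1.03, DESeq2 adjusted p = 7.5e-04). The broadly expressed proteases CAPN1 and FURIN had log2 fold changes of 0.13 (SE 0.14) and 0.28 (SE 0.16) and were not called. CASP14, a caspase that cleaves filaggrin, had no count in any sample, while BLMH, a hydrolase that acts on the resulting fragments, was abundant in both groups, at 3389 ± 129 and 3130 ± 131, and was not called (DESeq2 adjusted p = 0.697). Of 12 genes for the lipids of the skin barrier, 9 were tested and 1, NIPAL4, was called higher by DESeq2 and by edgeR, a share of 11.1% against 11.0% of all genes tested by DESeq2. DESeq2 and edgeR called 0 lower, 1 was lower by an unadjusted DESeq2 p under 0.05, and 5 of the 9 had a log2 fold change above 0. NIPAL4 falls under the level at which genes of this list were to be named and is named because it was the single call. SMPD1, the acid sphingomyelinase gene, had a log2 fold change of 0.43 (SE 0.21) and was not called, and the list's median was 0.10.

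Transcription factors known from epidermal differentiation made up a list of 26 genes. Of 25 tested, 7 were called higher (28.0%, against 11.0% of all genes tested; edgeR 5 of 20), with a median log2 fold change of 0.90, and 0 lower (0 at an unadjusted p under 0.05, edgeR 0). VDR, which encodes the vitamin D receptor, rose from 39.3 ± 9.94 to 935 ± 533 (SD, n = 3; log2 fold change 4.58, SE 0.45, DESeq2 adjusted p = 1.4e-22). The AP-1 genes JUN and JUNB were high in both groups, with log2 fold changes of 0.63 (SE 0.51) and 0.46 (SE 0.41), and were not called. Here the replicate block mattered. Blocked on the replicate number, DESeq2 called 14 and edgeR 11 of the list higher, JUN included (DESeq2 adjusted p = 2.6e-11). Over all genes, the blocked DESeq2 fit called 13.4% of those tested higher, against 11.0% without the block. That share was not computed for the blocked edgeR fit. JUNB was called with DESeq2 alone (adjusted p = 0.0283).

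**Figure D4:**
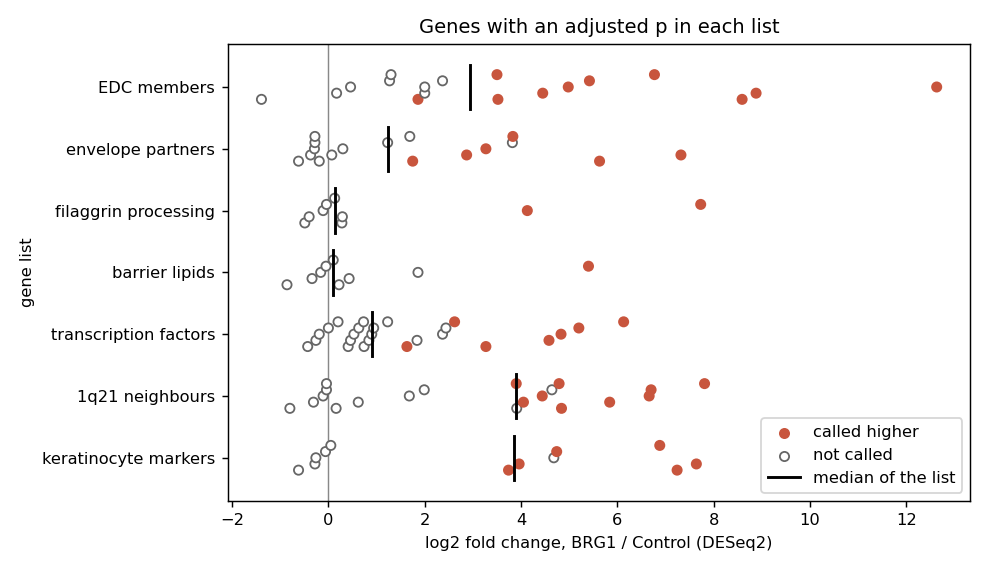
DESeq2 log2 fold changes of the genes with an adjusted p in each list, with filled circles for genes called higher, open circles for genes not called and black bars for the medians. The medians lie at 2.94 for the EDC members and 3.91 for their 1q21 neighbours, and at 0.13 and 0.10 for the filaggrin-processing and barrier lipid genes.

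Markers of cell types were read beside these results. Of 13 keratinocyte markers 12 were tested and 6 were called higher (50.0%, against 11.0% of all genes tested, and edgeR 5 of 8). These 6 were KRT5, KRT14, KRT15, KRT1, COL17A1 and TRIM29, while KRT10 and TP63 were among those not called. DESeq2 and edgeR called 0 lower, and 1 was lower by an unadjusted DESeq2 p under 0.05. Of the 12 tested, 8 had a log2 fold change above 0. Their summed level did not separate the groups, at 18770 to 24528 in Control and 20718 to 22265 in BRG1 samples, because DSG1 made up most of it. DSG1, DSG3 and TP63 also stand in the lists above. LGALS7 had no count in Control and KRT2 none in Control and in BRG1 sample 3. Of the 3 endothelial markers, CDH5 and VWF were called higher and PECAM1 was not, and their summed level was 25.6 to 91.6 in Control and 3350 to 3936 in BRG1 samples. Only 1 of the 3 averaged at least 100 normalised counts over all samples, so this sum does not stand for all 3. Of the 5 immune markers 3 were tested by DESeq2 and 2 by edgeR, and the 5 fibroblast markers were all tested by both. Without the replicate block none of those tested was called, and 1 immune and 2 fibroblast markers had an unadjusted DESeq2 p under 0.05. With the block, 1 immune marker, CD68, was called higher (DESeq2 adjusted p = 0.00132, edgeR adjusted p = 0.0343). In CD68 100% of the exonic bases are also exon of other genes. CD3E had at most 1 count in any library. Their summed levels overlapped, at 1856 to 2865 and 2411 to 3918 for the immune list and 5235 to 8743 and 4164 to 9303 for the fibroblast list. What part such differences have in the EDC values was not tested.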

How the data were processed

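RNA of 6 COV434 samples (3 Control, 3 BRG1, numbered 1 to 3 in each group and stated to be biological replicates) was made into unstranded mRNA libraries from 500 ng and sequenced as 78-base pairs. The authors aligned reads to hg38 with STAR 2.5.3a, quantified GENCODE v24 transcripts with salmon 0.8.2 and summed them with tximport. Estimated counts for each gene symbol, as deposited, were derived from length-scaled TPM and are not divided by library size, so differences in transcript length between samples are removed and reads that match several genes are shared out by model. The submitters' notes also name FastQC 0.11.5 and DESeq2 1.22.2. All 6 sample columns were matched to labels.

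Estimated counts were rounded to whole numbers and fitted over all genes with DESeq2 1.42.0 in R 4.3.3 (Wald test, median-ratio size factors, independent filtering, Benjamini-Hochberg adjusted p under 0.05), as the study used DESeq2. Its methods give neither formula nor filter. Adjusted p-values left empty stayed empty. Totals of 29699741 to 63613710 set the counting error, and intervals and the floor of 3 counts cover that error only. Replicates of a group differed by more than counting noise. Alternatives were edgeR 4.0.16, limma-voom 3.58.1, TMM factors, a filter of 10 counts in 3 samples, no independent filtering, an adjusted p under 0.01, a log2 fold change of at least 1, the replicate block and leaving out each sample. The DESeq2, edgeR and limma-voom fits were tested on simulated counts.

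Samples with the same number deviated together from their group means (r = 0.547, 0.579 and 0.627 across 14225 genes, against -0.574 to 0.115 for the other pairs), so the numbers were taken to pair the samples. Genes are not independent replicates.

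Members and lists were chosen with earlier results of these data known. Values of every sample were printed for members whose normalised counts averaged at least 100 and for IVL, LOR, FLG and CRNN, and group means or ranges for those of at least 10. From each other list up to 4 called genes with the largest absolute log2 fold change among those with a mean of at least 100 and up to 2 uncalled genes with the highest mean were named, apart from some genes not reported here, and markers were read as whole lists. Members outside this rule, SMCP, S100A14, KLK7, BLMH, NIPAL4, CASP14, PKP1, MAF, JUP and the markers were named after their values were seen. Positions, lengths and overlaps came from GENCODE 44 (GRCh38, the build of hg38), shared 31-base and 78-base words from its transcripts after a blastn 2.17.0 search, and promoters from RefSeq (GRCh38.p14).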

Additional observations from a re-analysis of the deposited data

How the results depend on the processing

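The 10 EDC calls became 5 with a filter of 10 counts in 3 samples, since FLG2, LCE1C, RPTN and SPRR2D failed that filter and LCE2A missed the threshold (DESeq2 adjusted p = 0.0662). Leaving out single samples gave 6 to 9 calls, the fewest without BRG1 sample 2. CRNN, FLG, HRNR, IVL and SPRR3 stayed called in every setting that tested them. No member was called lower in any setting, though few had the Control counts to show a fall.

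The replicate numbers were taken to pair the samples, which the labels do not state. With that block the epidermal transcription factors called higher went from 7 to 14 (DESeq2) and 11 (edgeR). The share of all genes tested that DESeq2 called higher went from 11.0% to 13.4%. For the EDC members the DESeq2 block took away the FLG2 and LCE2A calls and no other, and in the other lists it took away PKP1, MAF and S100A14 and, beside transcription factors, added JUP and CD68. Barrier lipid calls numbered 1 to 2 when single samples were left out, SMPD1 being added without BRG1 sample 3. Log2 fold changes near 0 changed sign in such fits, from a low of -0.09 to 0.05 for ILF2 and -0.37 to 0.06 for INTS3. The cause was not tested. Of the single-gene results under alternatives, 360 kept their direction and side of the threshold, 24 lost the call, 5 gained one and 3 reversed.

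Members with a few counts are limited by depth, and a difference in them could not be detected.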
